A study of Mus musculus with 18 samples.

Results

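The genes described here make ribosomes: RNA polymerase I with the factors that load it on ribosomal DNA, and the nucleolar proteins that modify, cut, fold and assemble its transcript into the small and large ribosomal subunits. They are 56 named genes, each read by the probe set annotated to that gene alone with the highest mean signal. All 56 were on the array, among 18193 genes with such a probe set, and all 56 passed the filter on low signal, as did 12719 genes in all. Their levels are log2 signals of RNA from 18 Affymetrix arrays of mouse G1E-ER4 cells, and no protein was measured. The arrays fall into 6 groups of 3, taken before estradiol (0 h) and after 3, 7, 14, 21 or 30 h in 20 nM of it. G1E-ER4 is a single immortalised line of Gata1-null erythroid precursors that carries GATA1 fused to an estrogen receptor domain, so all 6 groups share the Gata1 disruption and the fusion, and estradiol turns the fusion protein on. Parallel cultures without estradiol were not analysed here, so estradiol, GATA1 activity and hours in culture cannot be told apart.

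Ribosome production begins in the nucleolus, where RNA polymerase I transcribes a long precursor that holds the 18S, 5.8S and 28S rRNAs. Small nucleolar RNAs guide its chemical modification within box C/D particles, which methylate ribose, and box H/ACA particles, which make pseudouridine. The small subunit processome forms on the growing transcript and a separate set of GTPases, helicases and scaffold proteins builds the large subunit. Erythroid precursors make ribosomes at a high rate while they divide, and mature red cells have no nucleolus.

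Array medians of the deposited values lay close together, between 4.04 and 4.09. Across probe sets the mean correlation was 0.995 to 0.998 between arrays of one time and 0.962 between arrays of 30 h and of 0 h. No pair was identical (0). The labelled cell type was checked on 7 red cell markers, whose summed linear signal was 19690 to 20030 at 30 h and 3711 to 3930 at 0 h. Their means lay above the mean 40th percentile of the arrays at both times, but Epb42, a membrane protein of red cells, stayed near that level (3.65 at 30 h and 3.42 at 0 h) and lay below it on some arrays, as Hba-x did on 7 h replicate 3. Of 7 mast cell and basophil markers, 3 lay at or below that percentile at 30 h (Cpa3, Ms4a2 and Fcer1a) and 1 at 0 h (Fcer1a), with sums of 78.3 to 94.1 at 30 h and 360.1 to 448.9 at 0 h. Of 7 granulocyte and macrophage markers, the same 4 (Mpo, Elane, S100a8 and Lyz2) lay at or below it at 30 h and at 0 h, with sums of 83.0 to 93.3 at 30 h and 81.0 to 110.5 at 0 h. Of 6 megakaryocyte markers Vwf lay at or below it at both times, and the sums were 377.1 to 415.8 at 30 h and 467.8 to 506.7 at 0 h. Gp5 and Pf4 had means of 3.63 and 4.59 at 30 h, against 7.62 and 6.93 at 0 h, and Itgb3 had 7.70 at 30 h, against 5.66 at 0 h. Of 6 lymphoid markers 2 (Pax5 and Cd3e) lay at or below it at 30 h and 1 (Cd3e) at 0 h, with sums of 76.4 to 82.7 at 30 h and 71.6 to 74.1 at 0 h. The gap between 3′ and 5′ control probe sets, a measure of RNA length, was wider at 30 h than at 0 h for Actb (2.20 against 1.89), Gapdh (1.52 against 1.13), Tfrc (2.41 against 1.79) and 18S rRNA (0.91 against -0.51). The part of these shifts in the results below was not tested. In RNA from a whole culture, fewer cells of a kind and less RNA per cell cannot be told apart.

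By 30 h nearly every one of these genes had fallen. Of the 56, 55 were lower at 30 h than at 0 h and 1 was higher, with a median log2 change of -1.71, while 33.0% of all tested genes were called lower and 36.6% higher, around a median of 0.09. A gene is called here when its Benjamini-Hochberg adjusted p from limma, fitted across all 12719 tested genes, is under 0.05. The fall was at least 2-fold for 43 of the 56, against 13.1% of all tested genes. For 55 of the 56 all 3 arrays at 30 h lay below all 3 at 0 h, which 34.6% of tested genes did. Every member changed at some time by the F test over the course (56 of 56), a call made for 74.3% of tested genes. The changes were largest for Rrp1b (-3.58), Tsr1 (-2.92), Gar1 (-2.84), Utp20 (-2.82) and Nolc1 (-2.82), and the gene that rose was Rrn3 (0.27). The labels give 3 biological replicates for every time without saying that they came from separate cultures, so each p-value measures only the spread between these samples.

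**Figure D1:**
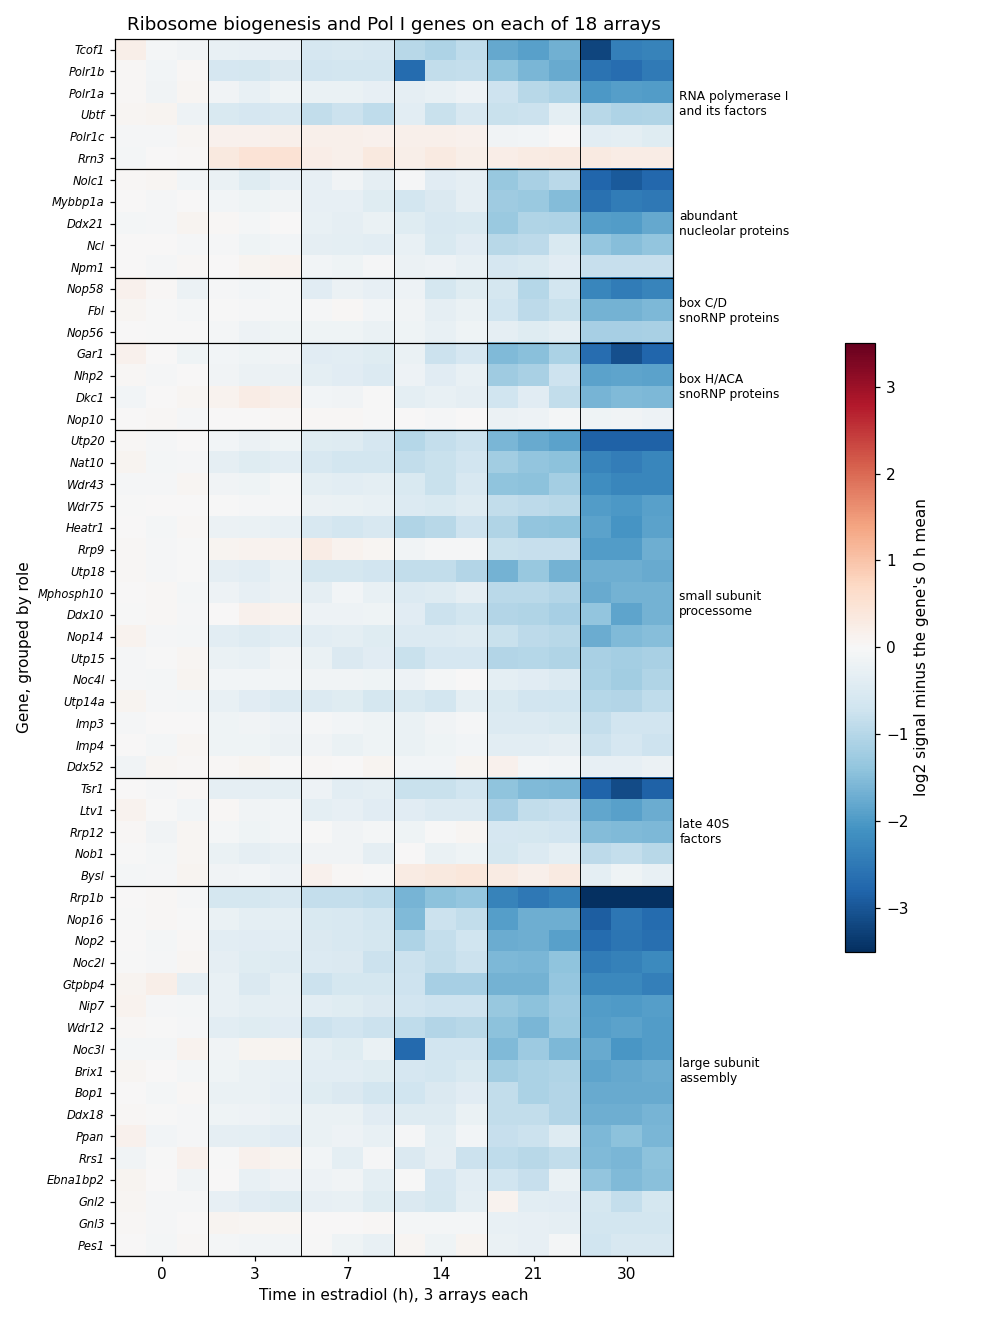
Each row is 1 of the 56 genes and each column 1 of the 18 arrays, in time order and grouped by role. Colour gives the log2 signal minus the gene's own mean at 0 h, blue lower and red higher. The columns at 30 h are blue for every gene but Rrn3, and 14 h replicate 1 stands out for Polr1b and Noc3l.

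The stretches of promoter just upstream of the 5 genes with the largest falls and of Rrn3 are shown because these genes mark the ends of the range. Windows of 250 bases upstream of the start were searched on both strands for the E-box CACGTG bound by MYC with MAX, its variant CACGCG, the ETS-type site CCGGAAG and the GATA-type site AGATAA. RefSeq windows (GRCm38.p6) matched 49 of the 56 genes. Each line gives the 120 bases that end at the base before the start site of the window, 5′ to 3′ on the gene's strand, and capitals mark CACGTG or CCGGAAG on either strand. They lie at chr17:32036042-32036161 (plus strand) for Rrp1b, chr11:74897960-74898079 (plus) for Tsr1 and chr3:129831397-129831516 (minus) for Gar1. Those of Utp20, Nolc1 and Rrn3 lie at chr10:88826815-88826934 (minus), chr19:46075727-46075846 (plus) and chr16:13780579-13780698 (plus). The start sites are those of the table of windows, and RefSeq's gene reached further upstream for 13 of the 49, by 11 bases for Gar1, so the end of that line lies within the gene.
Rrp1b: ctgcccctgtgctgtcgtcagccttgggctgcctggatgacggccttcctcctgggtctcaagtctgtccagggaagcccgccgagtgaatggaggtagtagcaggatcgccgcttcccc
Tsr1: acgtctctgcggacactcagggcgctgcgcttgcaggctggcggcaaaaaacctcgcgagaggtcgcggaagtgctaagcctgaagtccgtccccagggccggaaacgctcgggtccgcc
Gar1: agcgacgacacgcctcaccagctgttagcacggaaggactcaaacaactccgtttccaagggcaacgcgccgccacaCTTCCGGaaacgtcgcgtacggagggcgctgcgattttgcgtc
Utp20: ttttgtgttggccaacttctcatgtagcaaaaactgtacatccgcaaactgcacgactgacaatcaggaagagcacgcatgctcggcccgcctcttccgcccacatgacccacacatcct
Nolc1: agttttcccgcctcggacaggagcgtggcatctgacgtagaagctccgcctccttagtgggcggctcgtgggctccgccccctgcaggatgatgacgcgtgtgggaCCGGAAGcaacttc
Rrn3: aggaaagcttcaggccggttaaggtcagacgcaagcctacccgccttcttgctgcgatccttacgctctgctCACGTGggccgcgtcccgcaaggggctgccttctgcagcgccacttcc

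Of the 6 promoters, Gar1 and Nolc1 hold the ETS-type site in the stretch shown and Rrn3 holds the E-box. Over the 250-base windows, 4 of 49 members held CACGTG (8.16%), namely Rrn3, Utp18, Imp4 and Nop2, close to the 8.26% of 10259 tested genes with a window. The variant CACGCG was in 20.4% of member windows and 14.0% of those of tested genes, and CCGGAAG in 24.5% (12 of 49) against 13.6%. AGATAA was in 1 member window, that of Gtpbp4 (2.04%), against 6.29%. The 4 genes with CACGTG had a median change of -1.21 at 30 h (range -2.63 to 0.27) and the 45 without it -1.82 (-3.58 to -0.15). The windows had similar base composition, with a median GC content of 57.6% in members and 59.2% in tested genes. These shares describe letters in a fixed window, and no binding was measured.

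RNA polymerase I and its factors changed by unequal amounts, between -2.65 for Tcof1 and 0.27 for Rrn3. Of 6, 5 were lower at 30 h and Rrn3 was higher, and 4 had fallen by at least 2-fold. Polr1a, the largest catalytic subunit, read 6.11, 6.21 and 6.18 at 30 h, against 8.18, 8.0 and 8.20 at 0 h. It fell by 1.96 (SE 0.0801, adjusted p = 2.93e-12), and most of that fall came after 14 h, when its mean was still 7.88 ± 0.07 (SD, n = 3). Polr1b, its partner in the active centre, read 4.93, 4.84 and 5.03 at 30 h, against 7.56, 7.42 and 7.56 at 0 h, a change of -2.58 (SE 0.326). The groups of both genes were far apart at these times. At 14 h, however, Polr1b read 4.81 on replicate 1 and 6.65 and 6.67 on the others, and without that array its 14 h change was -0.85 in place of -1.47. Without it Polr1b was also called lower at 3 h (-0.58, adjusted p = 7.76e-05) and at 7 h (-0.65, adjusted p = 1.50e-05), where the fit of all arrays gave adjusted p = 0.217 and 0.148.

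Polr1c, a subunit that RNA polymerase I shares with RNA polymerase III, behaved unlike the catalytic pair. It was slightly higher than at 0 h at 3, 7 and 14 h (0.16, 0.18 and 0.17) and called lower at 30 h alone (-0.38). Its arrays read 10.40, 10.42 and 10.33 at 30 h, against 10.73, 10.71 and 10.84 at 0 h, without overlap. Scaling on the hybridisation controls, described below, ended that call (-0.18, adjusted p = 0.435). Rrn3, known as TIF-IA, is the factor that makes the polymerase competent to start at ribosomal DNA. It read 11.61, 11.77 and 11.77 at 3 h, against 11.22, 11.29 and 11.33 at 0 h, and 3 h was the time of its highest mean. It was called higher at each later time, with changes of 0.44, 0.25, 0.25, 0.28 and 0.27 at 3, 7, 14, 21 and 30 h (adjusted p = 0.00111 at 30 h). Under the control scaling only the 30 h call of Rrn3 remained (0.48, adjusted p = 0.0284). The adjusted p at the earlier times then lay between 0.0541 and 0.687.

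Ubtf, the protein that keeps ribosomal genes open, had much of its fall early. Its arrays read 9.85, 9.79 and 9.83 at 3 h, against 10.46, 10.48 and 10.21 at 0 h, and by 7 h it had reached 81.2% of its 30 h change. Its mean then stood at 9.54, 9.81, 9.76 and 9.35 at 7, 14, 21 and 30 h. Utp14a, of the small subunit processome, was the other gene whose largest fall came over the first 3 h, and it had reached 52.8% of its 30 h change by 7 h. Under the control scaling the 3 h call of Ubtf was lost (-0.46, adjusted p = 0.226). Tcof1 encodes treacle, which joins the polymerase to pre-rRNA processing and is mutated in Treacher Collins syndrome. It read 6.03, 6.84 and 6.92 at 30 h, against 9.44, 9.18 and 9.11 at 0 h, a change of -2.65 with a spread of 0.49 (SD) between the 30 h arrays. No array at 30 h came near the 0 h range.

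**Figure D2:**
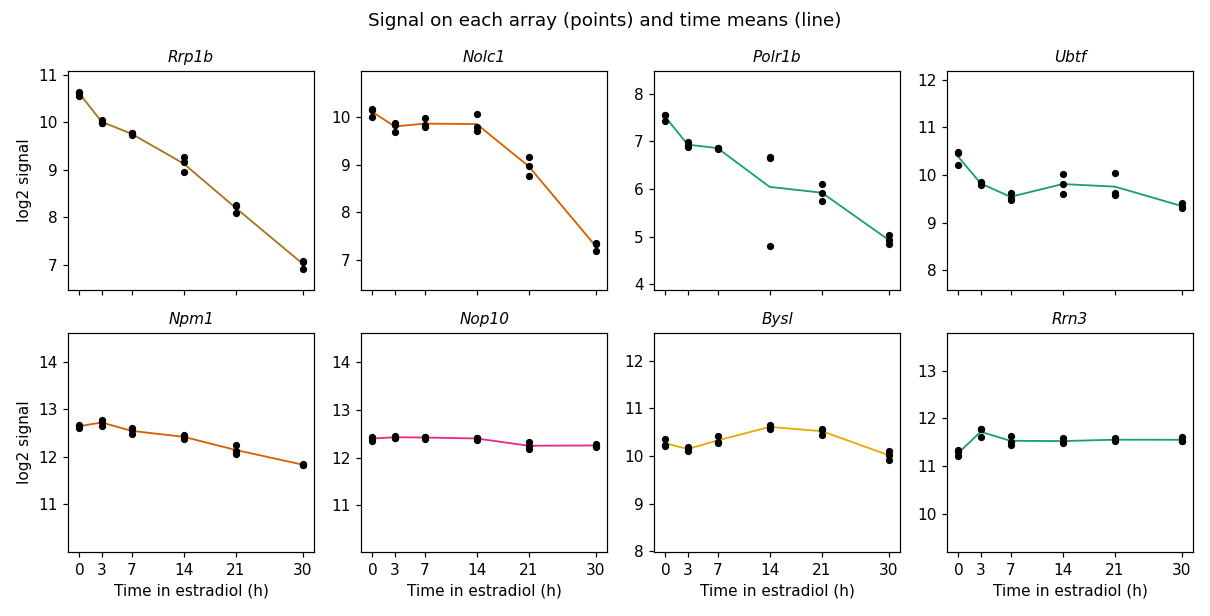
Points are the log2 signals on each array and lines join the means of each time for 8 of the genes, against hours in estradiol. All panels span the same height in log2 units. Rrp1b falls at every step, Nolc1 has little of its fall before 14 h, Ubtf has most of its fall by 7 h, and Nop10, Bysl and Rrn3 end within 0.3 of where they began.

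Genes of the abundant nucleolar proteins fell in all 5 cases, with a median of -1.89. Nolc1, a snoRNP chaperone that shuttles between nucleolus and Cajal bodies, had the largest fall of the group on the probe sets used. It read 7.32, 7.18 and 7.35 at 30 h, against 10.14, 10.17 and 10.01 at 0 h. Its 14 h mean was still 9.85 ± 0.19 (SD, n = 3), so 9.0% of its 30 h change had been reached by then. Mybbp1a, a large nucleolar protein first found by its binding to MYB, fell by 2.52. It is also the member with a high starting signal that fell most, and it read 9.64, 9.82 and 9.76 at 30 h, against 12.29, 12.22 and 12.28 at 0 h. Ddx21, a helicase that follows the state of RNA polymerase I, changed by -1.89, and nucleolin (Ncl), which binds pre-rRNA, by -1.41. Nucleophosmin (Npm1), a chaperone of the granular layer of the nucleolus, had the smallest change of the 5 on the probe sets used, at -0.81. Its arrays read 11.83, 11.84 and 11.83 at 30 h, against 12.65, 12.61 and 12.67 at 0 h, a small shift without overlap. The other probe set of Npm1 changed by -1.35 and other probe sets of Ncl by -2.53 to -1.03, so this rank depended on the probe set.

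Within the snoRNP particles the genes of one complex fell by unequal amounts. All 3 box C/D genes were lower at 30 h: Nop58 changed by -2.34, Fbl (the ribose methyltransferase fibrillarin) by -1.63 and Nop56 by -1.15. Nop58 read 8.08, 7.91 and 8.05 at 30 h, against 10.51, 10.39 and 10.16 at 0 h, and Nop56 read 10.91, 10.90 and 10.93, against 12.07, 12.05 and 12.06. Both are scaffold proteins of the same particle. All 4 box H/ACA genes were lower: Gar1 changed by -2.84, Nhp2 by -1.86, Dkc1 (the pseudouridine synthase dyskerin) by -1.58 and Nop10 by -0.15. Gar1, which helps the enzyme release its product, read 7.98, 7.59 and 7.87 at 30 h, against 10.79, 10.67 and 10.49 at 0 h. Nop10, a very small protein that holds dyskerin to the guide RNA, read 12.25, 12.28 and 12.23 at 30 h, against 12.41, 12.43 and 12.36 at 0 h.

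The call on Nop10 was a close one (adjusted p = 0.0149). It was lost without 0 h replicate 2 (adjusted p = 0.0539), without 30 h replicate 3 (0.0516) and with only these 6 arrays fitted (0.0546), and the control scaling turned its change to 0.06 (adjusted p = 0.806). The other probe set of Nop10 changed by -0.32. Other probe sets gave other sizes, -2.01 and -2.85 for Dkc1, -2.21 for Nhp2, -1.77 for Fbl and -1.46 for Nop56, so how unequal the falls were depended on the probe set. The difference between the signals of 2 genes of one particle was followed within each array. The log2 signal of Gar1 minus that of Nop10 changed by -2.69 between 30 h and 0 h, that of Nop58 minus Nop56 by -1.19, and that of Fbl minus Nop56 by -0.48. None of the 12 such pairs compared, in 4 complexes, overlapped between 30 h and 0 h, and 74.8% of all pairs of tested genes did not overlap either. The exact permutation p was 0.1 for each (two-sided, n = 3 arrays a time, adjusted p = 0.1), the smallest this design allows.

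Genes of the small subunit processome fell as a body. All 16 were lower at 30 h, 12 of them by at least 2-fold, with a median of -1.66. Utp20, a very long scaffold protein, had the largest fall, 7.07-fold: it read 7.10, 7.11 and 7.10 at 30 h, against 9.96, 9.89 and 9.94 at 0 h. Of the proteins that in human cells tie the processome to RNA polymerase I transcription, Wdr43 changed by -2.26, Wdr75 and Heatr1 by -1.94 and Utp15 by -1.15. The other probe set of Utp15 changed by -1.94. Nat10, which acetylates cytidine in 18S rRNA, changed by -2.34, but a dimmer probe set of Nat10 prone to cross-hybridise gave 0.29 (adjusted p = 0.124). Rrp9, a protein specific to the U3 snoRNP, changed by -1.88, and Mphosph10, which binds Imp3 and Imp4, by -1.68. Those 2 partners moved far less, Imp3 by -0.72 and Imp4 by -0.69.

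The other 6 processome genes changed by -1.73 to -0.26. Utp18 and Nop14 changed by -1.73 and -1.58, and the helicase Ddx10 by -1.63. Noc4l, which in yeast binds Nop14, changed by -1.12 and Utp14a, which in yeast activates a processome helicase, by -0.97. Ddx52, another helicase of the pathway, moved least. It read 9.26, 9.25 and 9.34 at 30 h, against 9.43, 9.62 and 9.59 at 0 h, a change of -0.26 (adjusted p = 0.0060) that the control scaling reduced to -0.06 (adjusted p = 0.795).

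Genes of factors that finish the 40S subunit, 5 in all, were each lower at 30 h, with a median of -1.54. Tsr1, a GTPase-like protein that blocks premature joining of the 60S subunit, read 7.82, 7.49 and 7.78 at 30 h, against 10.63, 10.57 and 10.66 at 0 h. Ltv1, an export and assembly factor, changed by -1.82, and Rrp12, which helps export pre-ribosomes, by -1.54. Nob1, the nuclease that cuts the 3′ end of 18S rRNA, changed by -0.92. Bysl, the homologue of yeast Enp1, first went the other way. Its means were 10.27, 10.15, 10.33, 10.61, 10.52 and 10.02 at 0, 3, 7, 14, 21 and 30 h, with calls of higher at 14 h (0.34, adjusted p = 0.000486) and 21 h (0.25). At 30 h it read 9.92, 10.12 and 10.02, against 10.21, 10.22 and 10.37 at 0 h (adjusted p = 0.00323). A dimmer probe set of Bysl changed by -0.87 at 30 h, and with the mean of both the 21 h value was -0.05 (adjusted p = 0.513). The control scaling ended the 30 h call of Bysl (-0.05, adjusted p = 0.838).

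The large subunit genes held both the largest fall and several small ones. All 17 were lower at 30 h, 14 by at least 2-fold, with a median of -1.79. Rrp1b, a nucleolar partner of protein phosphatase PP1, read 6.92, 7.07 and 7.09 at 30 h, against 10.62, 10.64 and 10.55 at 0 h. This was an 11.9-fold fall (log2 -3.58, SE 0.0742, adjusted p = 1.52e-15), and 2 other probe sets of Rrp1b changed by -3.29 and -2.76. The rRNA methyltransferase Nop2 changed by -2.63, Nop16 by -2.70, the NOC-family protein Noc2l by -2.35 and the GTPase Gtpbp4, known in yeast as Nog1, by -2.29. Nip7 and Brix1, which in yeast act on early large subunit particles, changed by -1.96 and -1.79. The helicase Ddx18 changed by -1.68, Ppan by -1.53, Rrs1, which in yeast brings in the 5S RNP, by -1.52, and Ebna1bp2 by -1.46.

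Noc3l, a partner of Noc2l, changed by -1.91 (SE 0.364). Its 14 h replicate 1 read 5.83 beside 7.88 and 7.87, the same array that was low for Polr1b, and the other Noc3l probe set did not show it (6.95 beside 6.87 and 6.85). Nop16 was low there too (7.58 beside 8.38 and 8.28), and its other probe set was not (6.95 beside 6.55 and 6.67). Those 3 genes were the only members more than 0.5 below the other 14 h arrays, and the median deviation of that array over the 56 genes was 0.01. Without it the 14 h changes of Noc3l and Nop16 were -0.68 and -0.80, against -1.36 and -1.05 with it, and Noc3l was called lower at 7 h as well (-0.33, adjusted p = 0.0202).

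The GTPases Gnl3 and Gnl2 moved less than the GTPase Gtpbp4 (-2.29). Gnl3, called nucleostemin and known from dividing stem and progenitor cells, changed by -0.64 and Gnl2 by -0.68. Other probe sets of Gnl2 gave -0.90 and -0.46. Gnl3 read 11.48, 11.50 and 11.50 at 30 h, against 12.17, 12.09 and 12.14 at 0 h, a small and tight shift. The PeBoW complex, needed to process the large subunit rRNA, is a trimer of Wdr12, Bop1 and Pes1. Wdr12 changed by -1.92 and Bop1 by -1.76, but Pes1 by -0.61. Pes1 read 8.74, 8.86 and 8.87 at 30 h, against 9.46, 9.36 and 9.49 at 0 h. Within arrays, Wdr12 minus Pes1 changed by -1.31 and Bop1 minus Pes1 by -1.15, while Wdr12 minus Bop1 changed by -0.16. Other probe sets that passed the filter changed by -2.65 for Wdr12, -1.73 for Bop1 and -0.80 for Pes1. The gap between Wdr12 and Bop1 thus depended on the probe set. Under the control scaling Pes1 missed the threshold (-0.41, adjusted p = 0.0689).

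**Figure D3:**
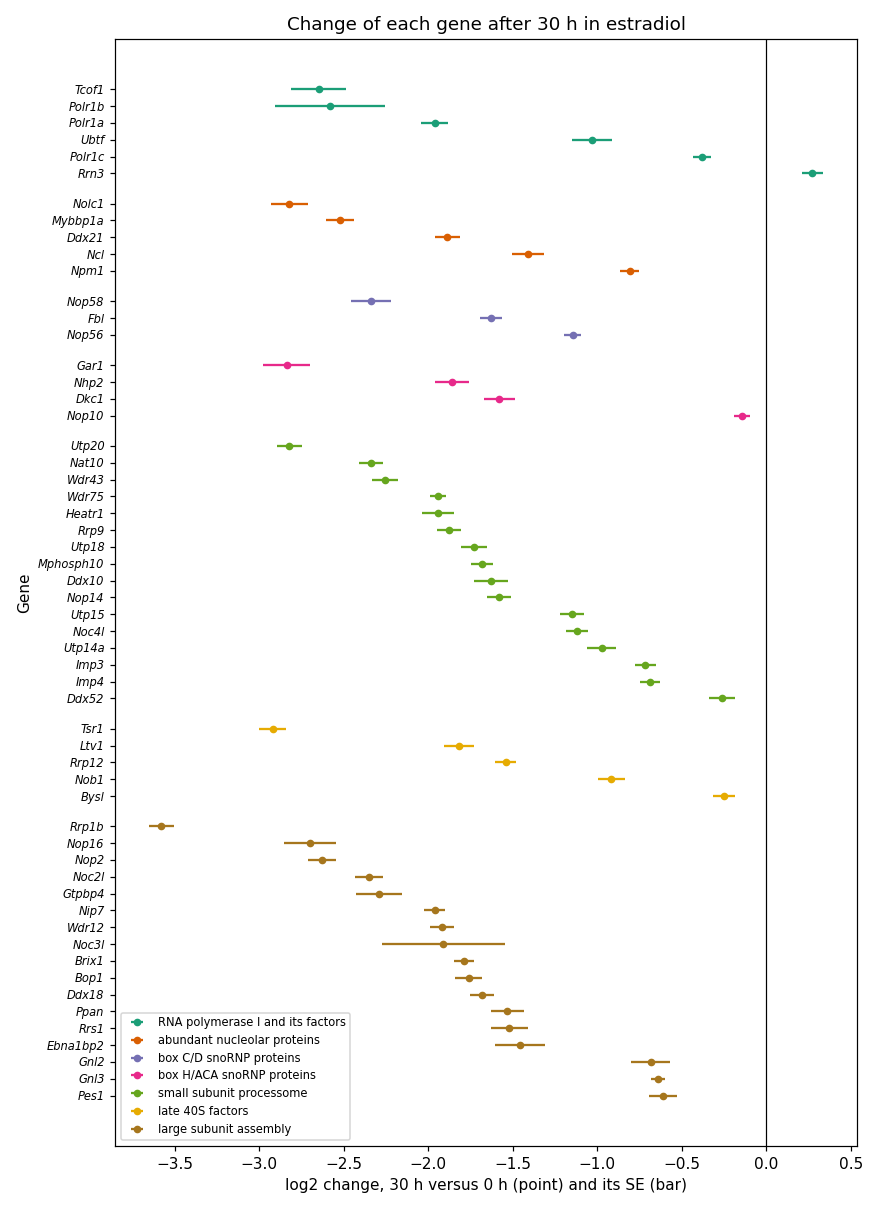
Points are the log2 change of each gene at 30 h against 0 h and bars its standard error from limma, grouped by role and ordered by size within it. Rrp1b lies furthest left at -3.58 and Rrn3 is the one point right of 0. Polr1b and Noc3l have the widest bars, 0.326 and 0.364.

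The fall came in stages, small at first and largest after 14 h. Against 0 h, members called lower numbered 20, 33, 41 and 50 at 3, 7, 14 and 21 h, with medians of -0.16, -0.30, -0.48 and -0.92. The shares of all tested genes called lower were 14.7%, 16.3%, 22.7% and 28.6%. Members called higher numbered 2 at 3 h (Rrn3 and Polr1c), 2 at 7 h (the same genes), 3 at 14 h (with Bysl) and 2 at 21 h (Rrn3 and Bysl). The shares of all tested genes called higher were 11.2%, 15.3%, 22.2% and 31.4%. These comparisons, like that at 30 h, share the 0 h arrays. The count at 3 h was 11 without 0 h replicate 1, 13 without 3 h replicate 2 and 12 without 3 h replicate 3, so the early calls rested on single arrays more than the late ones did. Polr1c lost its 3 h call without 0 h replicate 1 or 2 or without any single 3 h array, and its 7 h call without replicate 1 or 2 of 0 h or of 7 h.

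Set against the time before, 11 members were lower at 7 h than at 3 h, 18 at 14 h than at 7 h, 46 at 21 h than at 14 h and 51 at 30 h than at 21 h. The median changes over these steps were -0.17, -0.14, -0.48 and -0.74. All tested genes were called lower in 5.14%, 10.8%, 17.5% and 22.5% of cases. The 1 member called higher at a step was Bysl at 14 h (0.28), a call made for 11.5% of tested genes. At the other 3 steps limma called 0 higher, with 1, 1 and 0 at an unadjusted p under 0.05, and 9.81%, 15.7% and 18% of tested genes. The 11 became 4 without 3 h replicate 3 or 7 h replicate 2, 6 without 3 h replicate 1 or 2 and 7 without 7 h replicate 3. The 18 became 10 without 7 h replicate 1. Without 14 h replicate 2, 2 members were higher at 14 h than at 7 h, and without 21 h replicate 3, 1 was higher at 21 h than at 14 h.

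**Figure D4:**
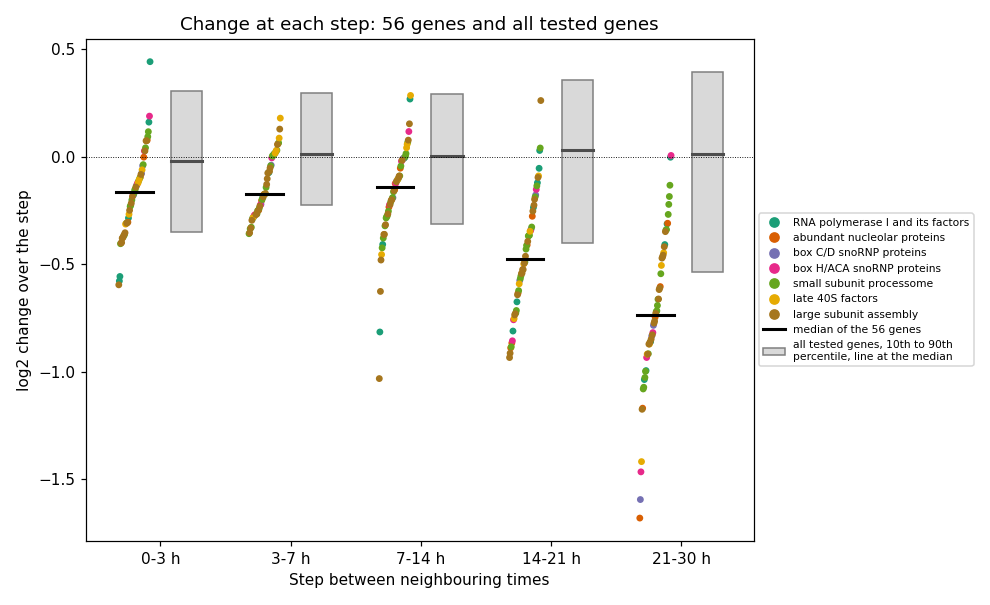
Points are the log2 changes of the 56 genes over each step between neighbouring times, coloured by role, with their median as a black line. Grey boxes span the 10th to the 90th percentile of all tested genes, with their median. The black line lies at -0.16, -0.17 and -0.14 over the first 3 steps and at -0.48 and -0.74 over the last 2.

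The genes differed in the time from which they were called lower without a break up to 30 h. That time was 3 h for 16 genes, among them Ubtf, Nop14, Nop2, Wdr12, Bop1, Rrp1b, Nip7 and Brix1, and 7 h for another 16, including Polr1a, Tcof1, Mybbp1a, Utp20, Heatr1 and Gtpbp4. It was 14 h for 8, including Fbl, Nop58 and Dkc1, 21 h for 10, including Rrp9, Rrp12 and Gnl3, and 30 h for 5 (Polr1c, Ddx52, Bysl, Pes1 and Gnl2). Of the 4195 tested genes called lower at 30 h, 21.3%, 16%, 20.7%, 19.2% and 22.8% had these times in the same order, beside 29.1%, 29.1%, 14.5%, 18.2% and 9.09% of the 55 members. Nolc1, Ppan and Nob1, counted at 21 h, had also been called lower at 3 h, and Gnl2 at 3, 7 and 14 h. The 21 h replicate 1 of Gnl2 read 10.84 beside 10.34 and 10.33. Polr1b and Noc3l were counted at 14 h, but without 14 h replicate 1 Polr1b was called from 3 h and Noc3l from 7 h. Under the control scaling the counts were 0, 11, 3, 30 and 6 of 50. The matching shares of all tested genes called lower at 30 h were 6.58%, 11.7%, 10.6%, 46.8% and 24.3%.

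For 45 genes the step from 21 to 30 h, the longest of the course, held the largest fall, and for 7 that from 14 to 21 h, against 44.5% and 23.5% of the tested genes called lower at 30 h. The control scaling turned this order, with 10 genes for the step from 21 to 30 h and 37 for that from 14 to 21 h. It did so for all tested genes called lower at 30 h as well, with 21.2% and 61.9%, beside 20.0% and 74.0% of members. The median share of the 30 h change reached, over the 55 genes that fell, was 10.8%, 17.1%, 25.7% and 56.6% at 3, 7, 14 and 21 h. The means of 28 genes fell at every step, as did those of 23.9% of tested genes called lower at 30 h, and under the control scaling 9 did so. In all, 14 genes were called lower in each of the windows 0 to 7, 7 to 14 and 14 to 21 h, as were 3.70% of tested genes. Under the control scaling 1 member was called lower over 7 to 14 h, beside 1.24% of tested genes.

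The times 0, 7, 14 and 21 h make 3 windows of equal length, so the rates could be compared directly. The fall over 14 to 21 h exceeded that over 7 to 14 h for 9 members (16.1%), a call made for 3.18% of tested genes. They were Polr1a, Nolc1, Mybbp1a, Nhp2, Utp20, Rrp9, Rrp12, Nop2 and Noc2l. Rrp12 was the clearest, with a difference between the steps of -0.63 (SE 0.111, adjusted p = 0.00634). Its arrays read 8.43, 8.32 and 8.37 at 7 h, 8.30, 8.43 and 8.51 at 14 h and 7.86, 7.82 and 7.78 at 21 h. The count rested on single arrays: it was 0 by limma without 14 h replicate 3 (24 at an unadjusted p under 0.05), 5 without 7 h replicate 3 and 17 without 21 h replicate 3. The fall over 7 to 14 h was smaller than that over 0 to 7 h for 5 members (8.93%, beside 5.19% of tested genes), namely Ubtf (1.11, adjusted p = 0.00219), Utp14a, Nat10, Wdr12 and Bop1. That count was 2 without 0 h replicate 1 or 14 h replicate 3, 3 without 7 h replicate 1 or 2 and 1 without 7 h replicate 3. No member (0) had the opposite difference by limma, 2 had it at an unadjusted p under 0.05, and 6.68% of tested genes were called. Without 30 h replicate 3, 1 member was.

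How much of the early fall was called depended on the scale set for the arrays. Arrays were shifted so that their spike-in hybridisation controls, which are added in fixed amounts, had equal means. This moved the median of all genes at 30 h to 0.30 and at 14 h to 0.25. Before the shift the controls averaged 11.67, 12.05 and 12.12 on the 0 h arrays. Averaged by time, they lay between 11.72 at 14 h and 11.99 at 7 h. Arrays of one time were thus shifted by unequal amounts, and the part of this in the lost calls was not tested. Members called lower against 0 h by limma then numbered 0, 12, 14, 44 and 50 at 3, 7, 14, 21 and 30 h, with 3 at an unadjusted p under 0.05 at 3 h. The matching shares of all tested genes were 2.24%, 5.13%, 6.38%, 18.3% and 20.3%. The members' median was -0.064, -0.35, -0.25, -0.91 and -1.50 at the same times. Between 14 h and 7 h it was 0.14, opposite in sign, with 1 member called lower, against 1.24% of tested genes. From 14 to 21 h 39 members were called lower under this scaling, in place of 46 (13.0% of tested genes). From 21 to 30 h 30 were, in place of 51 (5.92%). The medians over these steps were -0.69 and -0.55, in place of -0.48 and -0.74.

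Probe sets of one gene mostly moved together. The 56 genes had 117 probe sets of their own, of which 111 passed the filter and 109 were called lower at 30 h. The share of all probe sets called lower was not counted, and that of all tested genes, each on 1 probe set, was 33.0%. Of 41 members with more than 1 probe set that passed the filter, 40 were called lower on every one. None (0) had probe sets called in opposite directions. The exceptions were Rrn3, read by 1 probe set, and the dim one of Nat10. Sizes could differ, however. Ubtf changed by -1.98 on its other probe set, against -1.03 on the one used, and Polr1c by -0.69 against -0.38. Among others, Ddx10 changed by -2.52 against -1.63 and Rrs1 by -2.44 against -1.52.

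Other genes of the pathway, from lists that hold none of the 56, were mostly lower too. These lists were chosen with earlier results of these data known, so their counts are not an independent test. Among all tested genes, 33.0% were called lower at 30 h and 36.6% higher. Of 11 other RNA polymerase I genes 9 were lower at 30 h and 1 higher, with a median of -0.47. Among them the subunit Polr1e changed by -2.03 and Cd3eap by -1.17. Of 35 other small subunit factors 31 were lower and 1 higher (median -0.78), led by the processome scaffold Pwp2 (-2.44), Wdr46 (-2.24) and Pdcd11 (-2.20). Of 39 other large subunit factors 31 were lower and 2 higher (median -1.24), led by Sdad1 (-3.16), Rrp15 (-2.85) and the remodelling AAA ATPase Mdn1 (-2.71). All 9 genes of proteins that assemble snoRNPs were lower (median -1.50), among them Znhit6 (-2.34) and the ATPases Ruvbl2 (-2.28) and Ruvbl1 (-2.06). Of 22 genes of the nuclear RNA exosome and RNase MRP, which trim and cut pre-rRNA, 19 were lower and 2 higher (median -0.87), including Rpp40 (-2.17) and Exosc5 (-1.95). Under the control scaling the counts called lower were 4, 24, 28, 9 and 14, in the order given, beside 20.3% of all tested genes.

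**Figure D5:**
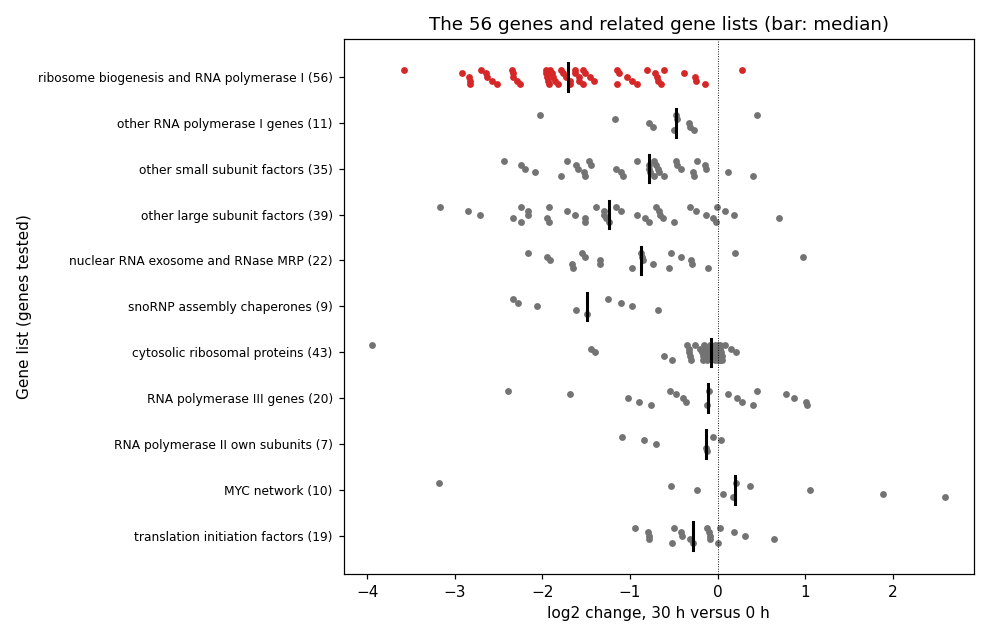
Each point is the log2 change of 1 gene at 30 h against 0 h and each black bar the median of its list, with the number of genes tested in brackets. The 56 genes (red, median -1.71) and the 9 snoRNP assembly chaperones (-1.50) lie furthest left. Cytosolic ribosomal proteins (-0.08), RNA polymerase III (-0.11) and RNA polymerase II (-0.13) have medians near 0.

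Genes of the ribosomal proteins themselves, the structural parts that these factors assemble, showed a different picture. Of 79 cytosolic ribosomal protein genes listed, 43 could be tested, and 20 were lower and 1 higher at 30 h, with a median of -0.08. The shares of all tested genes were 33.0% lower and 36.6% higher. Under the control scaling 3 ribosomal protein genes were called lower, beside 20.3% of all tested genes. Of the 43, 36 had a mean signal above 12 at 0 h, and their changes lay between -0.35 and 0.15. Members that started as bright, 6 in number (Npm1, Mybbp1a, Fbl, Nop56, Nop10 and Gnl3), changed by -2.52 to -0.15. Whether bright probe sets understate a fall was not tested. Rpl12 (-3.94), Rpl14 (-1.45) and Rps25 (-1.40) fell further on probe sets of their own, but probe sets that these genes share with others changed only by -0.58 to -0.10.

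RNA polymerase III makes 5S rRNA and tRNAs. Of 20 RNA polymerase III genes tested, 9 were lower and 8 higher (median -0.11), beside 33.0% and 36.6% of all tested genes. The falls included Polr3e (-2.40) and Gtf3a (-1.69), the factor specific to the 5S gene. Of 7 subunits of RNA polymerase II alone 3 were lower (median -0.13), led by Polr2d (-1.09). Of 19 translation initiation factors 11 were lower and 3 higher (median -0.28), with Eif4a1 at -0.95. The MYC network, whose members bind CACGTG and are known to regulate ribosome biogenesis genes, was mixed, with 3 of 10 lower and 6 higher. Its share of lower genes lay near that of all tested genes. Myc itself had means of 10.97, 10.19, 10.18, 9.53, 8.0 and 7.79 at 0, 3, 7, 14, 21 and 30 h. Mxd1 and Mxd4, repressors that pair with MAX in place of MYC, rose by 2.59 and 1.89, and Max by 0.37. Counts called lower under the control scaling were 5 for RNA polymerase III, 3 for RNA polymerase II, 4 for initiation factors and 1 for the MYC network. That scaling called 20.3% of all tested genes lower.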

How the data were processed

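The values the authors deposited are log2 signals of 45101 probe sets on every array, 64 of them controls. How probes were summarised and arrays normalised was not given in the sources used here. Base 2 was inferred from their range, which ended at 14.4. Genes were named through the platform annotation, which gave 34945 probe sets 1 gene and 932 several, and those with several were left out. The probe set with the highest mean stood for a gene, and genes above the 40th percentile on at least 3 arrays were tested.

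All 18 arrays were fitted with limma 3.58.1 in R 4.3.3 (lmFit and eBayes, a mean per time, 12 residual degrees of freedom), with Benjamini-Hochberg adjustment over 12719 genes for each comparison, two-sided, at 0.05. No pseudocount was needed. The code was tested on simulated data. The number of arrays limits the precision.

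The members and the gene lists were chosen with earlier results of these data known. All 56 members were named. Of each other list, up to 3 called genes with the largest 30 h change were named, with Myc and Max always. Promoter windows are RefSeq's (GRCm38.p6), and of several for a gene the most upstream was used. Alternatives were quantile, median and hybridisation-control scaling, other filters and probe set choices, other variance settings, the replicate number as a block, a minimum of 2-fold, and fits without each array in turn.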

Additional observations from a re-analysis of the deposited data

Results flagged for a closer look

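Some of the genes were called in tests of the difference between windows of equal length. Over 14 to 21 h, 9 of the 56 genes fell faster than over 7 to 14 h (3.18% of all tested genes were called), with differences between -0.88 for Nolc1 and -0.51 for Utp20. This count was 0 by limma without 14 h replicate 3 (24 at an unadjusted p under 0.05), 5 without 7 h replicate 3 and 17 without 21 h replicate 3. Over 7 to 14 h, 5 genes (8.93%) fell less than over 0 to 7 h, a share near the 5.19% of all tested genes, by 0.45 for Nat10 to 1.11 for Ubtf. That count was 1 under scaling on the hybridisation controls, 2 without 0 h replicate 1 or 14 h replicate 3, 3 without 7 h replicate 1 or 2 and 1 without 7 h replicate 3.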

How the results depend on the processing

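At 30 h against 0 h, single members kept their direction and side of the threshold in 1601 of the comparisons with an alternative, lost the call in 20 and turned in 1. The cause of these changes was not tested. With scaling on the hybridisation controls, members lower and higher were 0 and 0 at 3 h (3 and 1 at an unadjusted p under 0.05 by limma), 12 and 0 at 7 h and 14 and 1 at 14 h, with 0 higher at 21 h. It gave 0 lower at 7 h against 3 h (17 unadjusted), 1 at 14 h against 7 h and 30 at 30 h against 21 h, with step differences in 5 (14 to 21 h) and 1 (7 to 14 h, smaller falls). Its medians were -0.064, -0.35, -0.25 and -1.50 at 3, 7, 14 and 30 h, and -0.32, 0.14, -0.69 and -0.55 over the steps that ended at 7, 14, 21 and 30 h. It turned Npm1 (0.0061), Fbl (0.0070), Nop56 (0.044) and Imp4 (0.066) at 14 h against 0 h and Nop10 (0.058) at 30 h, and at 14 h against 7 h Ddx21 (0.043), Fbl (0.087), Rrp9 (0.066), Wdr43 (0.0024), Wdr75 (0.024), Wdr12 (0.055), Nip7 (0.011) and Brix1 (0.077). Quantile normalization gave a median of -0.45 at 21 h against 14 h and 1 member falling more over 7 to 14 h than over 0 to 7 h, as did the 60th-percentile filter. That filter gave 1 higher at 7 h against 3 h and 21 step differences (14 to 21 h), and no filter gave 1 higher at 3 h and 7 lower at 7 h against 3 h. The mean of probe sets gave 1 higher at 3, 7, 14 and 21 h, 17 lower at 7 h against 3 h, 0 higher at 14 h against 7 h, 8 smaller falls over 7 to 14 h and medians of -0.37 at 7 h, -1.07 at 21 h and -1.76 at 30 h. It turned Imp4 at 7 h (0.0013), Bysl at 21 h (-0.052) and Utp18 at 14 h against 7 h (0.040). Without probe sets named _x_at or _s_at, 1 was higher at 3 h and at 7 h, 8 had smaller falls over 7 to 14 h and the 30 h median was -1.77. Fitting only the arrays compared gave 1 higher at 3 h and at 7 h, 22 and 8 lower at 7 h against 3 h and 14 h against 7 h, and step differences in 0 (27 unadjusted) and 3. A trended, robust variance gave 17 lower and 1 higher at 7 h against 3 h, 1 higher at 21 h against 14 h and 23 step differences. With a 2-fold minimum, members lower were 0, 0, 5 and 24 at 3, 7, 14 and 21 h, and 0, 0, 0 and 10 over the steps ending at 7, 14, 21 and 30 h. It left 0 higher in all comparisons, 0 falling faster over 14 to 21 h and 1 with a smaller fall over 7 to 14 h. The replicate numbers did not pair the arrays: of 45 same-numbered pairs 7 deviated together with r above 0.1 (range -0.17 to 0.19). The replicate number as a block gave 1 higher at 3 h and moved no other count of calls by over 1.5 times. Leaving out each array, lower and higher at 3, 7, 14, 21 and 30 h ranged over 11 to 23 and 1 to 3, 26 to 35 and 1 to 2, 37 to 43 and 2 to 3, 50 to 51 and 2 to 2, and 54 to 55 and 1 to 1. Medians ranged from -0.18 to -0.15, -0.32 to -0.28, -0.49 to -0.42, -0.94 to -0.91 and -1.74 to -1.69. Over the steps, lower ranged over 4 to 16, 10 to 20, 42 to 48 and 49 to 52, higher over 0 to 0, 1 to 2, 0 to 1 and 0 to 0, and medians from -0.18 to -0.15, -0.18 to -0.12, -0.49 to -0.45 and -0.76 to -0.73. Step differences ranged over 0 to 17 (14 to 21 h), 0 to 1 (larger falls over 7 to 14 h) and 1 to 6 (smaller falls). The F test called 55 to 56.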

Other observations

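A few genes of the wider pathway rose at 30 h. They were chosen after their values were seen. Pop4, a protein shared by RNase MRP and RNase P, was higher by 0.98 (SE 0.0640, limma adjusted p = 9.81e-10), Pak1ip1, a large subunit factor, by 0.70 (adjusted p = 2.24e-08) and Taf1c, a part of the promoter factor SL1 of RNA polymerase I, by 0.45 (adjusted p = 0.00222). Ngdn, a small subunit factor, was higher by 0.40 (adjusted p = 0.000733). On the RNA polymerase III side Maf1, its general repressor, was higher by 1.02 and Brf1, a subunit of its initiation factor, by 1.01 (adjusted p = 4.88e-10 and 3.66e-08).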
